A study of Homo sapiens with 12 samples.

Results

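The comparison described here set cells exposed to MC2494 directly against cells exposed to EX527. It used 4 MC2494 and 4 EX527 arrays of the 12 in the series, and the 4 control arrays entered the same model to fix the spread. The cells were U937, a human leukaemia line of monocytic character, treated for 24 h and read on single-colour Illumina bead arrays. A probe was used where its detection p-value was under 0.05 on at least 4 of the 12 arrays, which kept 13174 of 24526 probes. Of these, 11959 carried a gene symbol and stood for 9956 genes. The groups are named by their compound alone. No dose is given for either compound and no carrier is given for the controls, so the compounds cannot be said to have been set at matched doses. Nothing in the labels shows that replicate arrays hold RNA of independent cultures. The p-values thus reflect how far arrays of one group scatter, and that scatter may be purely technical.

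Sirtuins are enzymes that remove acetyl and related groups from lysines of histones and other proteins and consume NAD in doing so. SIRT1 is a mainly nuclear member that acts on histones, p53 and several transcription factors, while others of the family work in the cytosol or the mitochondria. EX527 is a known inhibitor of SIRT1, and the series presents MC2494 as an inhibitor of sirtuins. Both compounds are thus placed in the same class by the study, and their direct comparison asks which genes separate them.

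Of 14 U937 and monocytic blast markers on the array 13 passed the filter, among them SPI1, CEBPA and LYZ, and MPO did not. The filter kept 4 of 15 markers of lymphocytes, 4 of 13 of the erythroid and megakaryocyte lines and 3 of 15 of epithelium and fibroblasts. The lymphocyte markers kept were MS4A1, CD79A, CD79B and NKG7, and CD3 chains were among those not kept. Their summed normalized signal was 8673 to 9028 in control, 8878 to 9628 with EX527 and 7892 to 8293 with MC2494. EPOR, KLF1, GP1BA and PPBP were the erythroid and megakaryocyte markers kept, without a globin, and summed to 281 to 323 in control, 240 to 269 with EX527 and 219 to 245 with MC2494. EPCAM, PDGFRA and VIM, the last also made by monocytic cells, were kept without a keratin or collagen and summed to 3278 to 3809 in control, 4381 to 5329 with EX527 and 2634 to 3179 with MC2494. The lymphocyte and the epithelial and fibroblast sums were thus higher on every EX527 than on every MC2494 array, and their part in the differences was not tested. Most of the lymphocyte sum was NKG7, which read 12.88 to 12.95 on the MC2494 arrays (normalized log2 signal). Gene by gene, of the 4 lymphocyte markers 1 was called higher in MC2494, 1 lower and 2 not, with calls as defined below. Of the 3 epithelial and fibroblast markers 1 was called lower and 2 were not called. Raw signal per probe averaged 736.2 ± 32.3 on the EX527 arrays and 662.8 ± 31.0 on the MC2494 arrays (SD, n = 4 each), and these groups did not overlap (p = 0.0286 by a 2-sided exact permutation test, which can go no lower with 4 arrays a group). The number of detected probes per array was 12564 ± 139 with EX527 and 12806 ± 216 with MC2494 (SD, n = 4 each, exact permutation p = 0.114). After quantile normalization the first principal component of the 8 arrays held 85.1% of the variance and separated the compounds. The second held 4.46% and set replicates 1 and 2 apart from 3 and 4 in both compounds. Its scores were -6.54, -8.55, 6.96 and 8.13 for MC2494 replicates 1 to 4. For EX527 replicates 1 to 4 they were -1.17, -5.31, 1.02 and 5.45. The labels give no batch for this split. With replicates 1 and 2 alone 5053 genes were called between the compounds and with replicates 3 and 4 alone 5144, and all 36 mitosis genes were called lower in each. The split was chosen after seeing the data, so these counts are descriptions, and its source was not tested.

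A gene was called where its adjusted p was under 0.05 in the fit over all 12 arrays, and a difference is MC2494 minus EX527 on the log2 scale. On that measure 6168 of the 9956 genes (62%) were called, 3292 (33.1%) higher and 2876 (28.9%) lower in MC2494. For 5530 genes (55.5%) the 4 values of one compound did not overlap the 4 of the other. A difference of at least 1.5-fold was found for 978 of the higher and 943 of the lower genes. Of the called genes 2206 had a whole 95% interval within 0.5 of 0 on the log2 scale. At a size of at least 2-fold there were 279 genes higher (2.8%) and 364 lower (3.66%), and at 3-fold 58 and 118. Higher calls made up 53.4% of all calls, but 41.9% when arrays were scaled to a common median in place of quantile normalization and 35.9% with no scaling, which also moved the median difference of all genes from 0.02 to -0.10. The share of higher against lower calls therefore depended on the scaling, and small differences are to be read relative to the other genes. The counts of each gene list below are to be read against 33.1% of all genes higher and 28.9% lower, and where another scaling moved such a count by over 1.5 times its value is given.

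**Figure D1:**
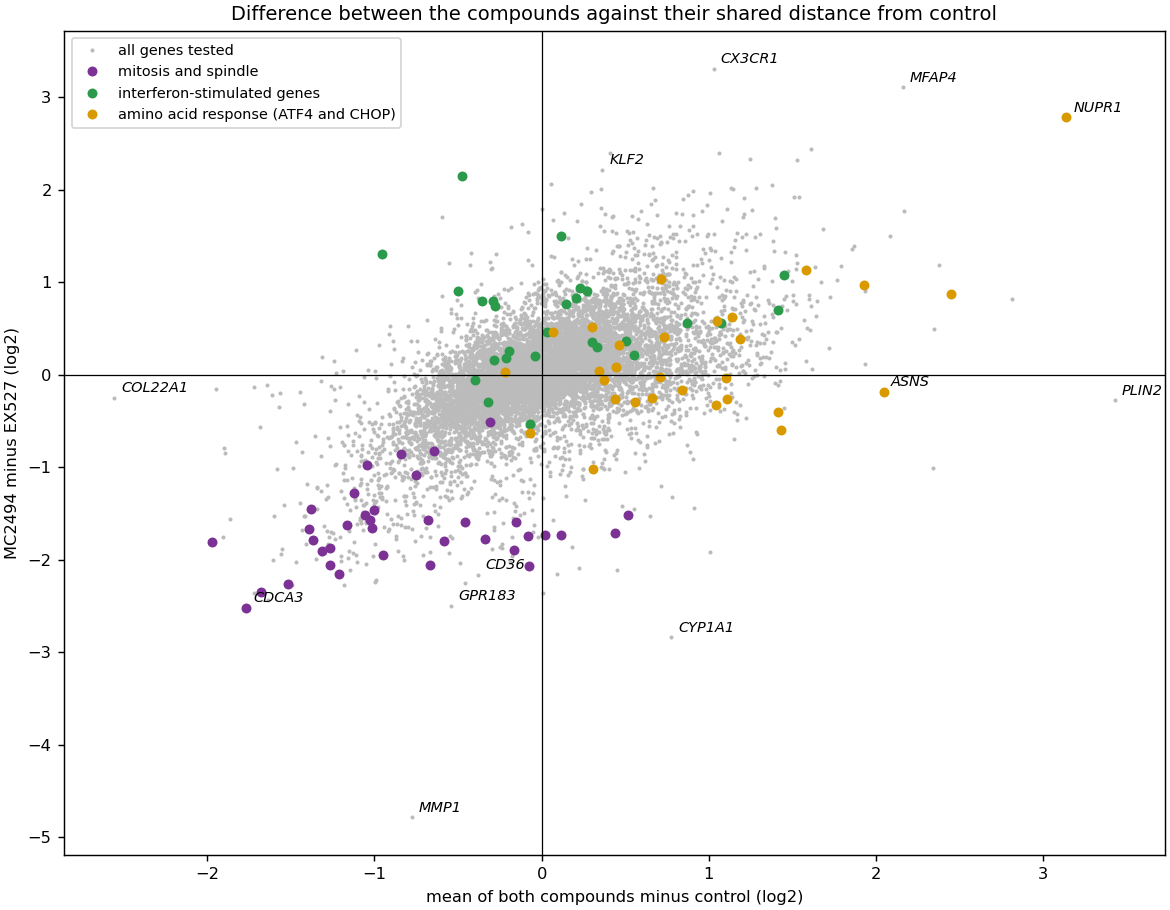
Each point is a gene, with the mean of both compounds minus control on the horizontal axis and MC2494 minus EX527 on the vertical axis, both as log2 differences of group means of 4 arrays. All 36 mitosis genes (purple) lie below 0, most interferon-stimulated genes (green) lie above it, and most amino acid response genes (orange) lie to the right, above and below it.

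Among the widest differences were genes of secreted, surface and stress proteins. MMP1, an interstitial collagenase, read 10.07, 10.03, 10.03 and 9.82 on the EX527 arrays, 5.13, 5.23, 5.35 and 5.11 on the MC2494 arrays and 8.70, 8.21, 8.23 and 8.35 in control (normalized log2 signal). EX527 arrays were all above control and MC2494 arrays all below it, and the compounds differed 27.6-fold (log2 -4.78, SE 0.101, adjusted p = 7.6e-13). MMP1 was detected on all 4 EX527 arrays and on 3 of 4 MC2494 arrays.

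In the other direction the widest difference was that of CX3CR1, the receptor of the membrane-bound chemokine fractalkine. It read 6.43, 6.10, 6.35 and 6.48 with EX527, 9.54, 9.79, 9.66 and 9.60 with MC2494 and 7.11, 7.00, 6.89 and 6.87 in control. The 3 groups did not overlap, and the signal was 9.91-fold higher with MC2494 (log2 3.31, SE 0.0858, adjusted p = 3e-12). MFAP4, which encodes a glycoprotein of elastic fibres, read 6.84, 7.02, 6.92 and 6.91 with EX527 and 9.96, 10.04, 10.08 and 10.05 with MC2494, a difference of 8.63-fold (log2 3.11, SE 0.0602). It was higher than in control with both compounds, by 3.72 with MC2494 and by 0.61 with EX527 on the log2 scale.

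**Figure D2:**
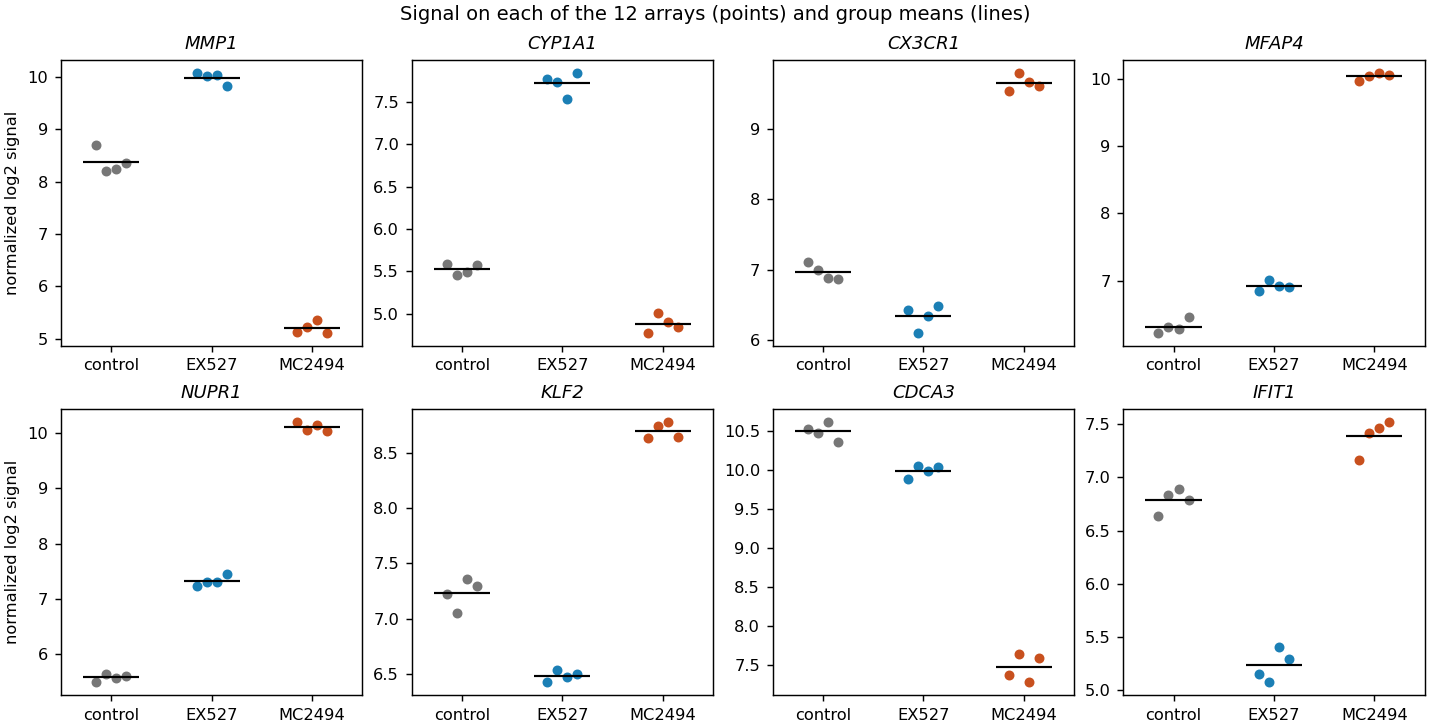
Normalized log2 signal of 8 genes on each array, with control in grey, EX527 in blue, MC2494 in orange and a line at each group mean. In every panel the 4 MC2494 points lie apart from the 4 EX527 points, and MMP1, CYP1A1, CX3CR1, KLF2 and IFIT1 have control between the compounds.

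Genes of cell division formed the most uniform group. All 36 measured genes of mitosis and the spindle were called lower in MC2494, against a background of 28.9% of genes, and their median difference was -1.72 where that of all genes was 0.02. With MC2494 all 36 were also lower than in control (background 35% of genes). With EX527 18 were lower and 12 higher than in control (background 31% and 25.9%). The 2 comparisons with control share the 4 control arrays. The list medians against control were -1.72 and -0.22 for MC2494 and EX527. In RNA of whole cultures, fewer dividing cells and less RNA per dividing cell cannot be told apart.

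CDCA3, whose product helps to trigger entry into mitosis, read 9.88, 10.05, 9.98 and 10.04 with EX527, 7.37, 7.64, 7.28 and 7.59 with MC2494 and 10.53, 10.48, 10.61 and 10.36 in control. Both compounds lay below control, MC2494 much further, and the compounds differed 5.74-fold (log2 -2.52, SE 0.0825, adjusted p = 1.1e-11). MKI67, the gene of the proliferation antigen Ki-67, read 7.63, 7.44, 7.62 and 7.65 with EX527, 5.45, 5.19, 5.56 and 5.53 with MC2494 and 7.68, 7.82, 7.63 and 7.77 in control. Its EX527 values reached into the control range, and its MC2494 values were 4.45-fold lower than those of EX527. The kinesin gene KIF20A, needed for cytokinesis, differed by -2.35, and SPC24, a kinetochore subunit, by -2.26. NCAPG, a condensin subunit outside the list, differed by -2.26 (adjusted p = 4.5e-12). The kinetochore motor gene CENPE stood on both sides of control, 0.96 with EX527 and -1.11 with MC2494.

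The promoters of CDCA3 and MKI67 are shown because many genes of late cell cycle share 2 short elements, the cell cycle genes homology region (CHR), searched as TTTGAA, and the CCAAT box, searched as CCAAT, each on both strands. The sequences are RefSeq's for GRCh38.p14, 250 bases before to 50 after the start site, read along the gene, and capitals mark matches. They lie on the minus strand, CDCA3 at chr12:6851237-6851536 and MKI67 at chr10:128126374-128126673. In MKI67 a CHR match runs into a CCAAT match on the other strand, and they share a base.
CDCA3: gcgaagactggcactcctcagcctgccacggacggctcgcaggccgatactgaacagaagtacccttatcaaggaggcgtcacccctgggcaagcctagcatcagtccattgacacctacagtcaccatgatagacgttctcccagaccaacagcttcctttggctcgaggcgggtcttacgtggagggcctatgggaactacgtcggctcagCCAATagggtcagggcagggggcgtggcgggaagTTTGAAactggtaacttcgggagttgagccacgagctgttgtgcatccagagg
MKI67: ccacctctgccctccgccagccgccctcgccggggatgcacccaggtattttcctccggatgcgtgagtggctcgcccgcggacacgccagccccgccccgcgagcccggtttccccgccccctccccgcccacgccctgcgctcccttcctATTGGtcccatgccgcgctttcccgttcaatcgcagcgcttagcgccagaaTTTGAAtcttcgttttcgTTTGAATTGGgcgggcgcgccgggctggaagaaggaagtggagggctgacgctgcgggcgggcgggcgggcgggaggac
A CHR match was present in 20 of the 30 mitosis genes with a promoter in the table (66.7%) and in 843 of the 8311 tested genes with one (10.1%). A CCAAT match was present in 24 of 30 (80.0%) against 37.4%, and both together in 17 of 30 (56.7%) against 4.31%. The CCAAT match alone was as frequent in genes of endoplasmic reticulum chaperones (16 of 20, 80.0%) and of cholesterol synthesis (12 of 15, 80.0%). A match is a description of the letters and not evidence of binding.

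DNA replication and nucleotide supply genes followed the same direction. Of 35 measured, 33 were called lower in MC2494 and 1 higher, with a median difference of -1.05. Against control 34 were lower with MC2494 and 21 with EX527 (background 35% and 31%). RRM2, the small subunit of ribonucleotide reductase, read 10.67, 10.58, 10.52 and 10.49 with EX527 and 8.25, 8.35, 8.27 and 8.29 with MC2494, 4.84-fold lower (adjusted p = 4.3e-12). The EX527 values overlapped the control values, 10.52, 10.73, 10.68 and 10.52. DUT, which removes dUTP, differed by -2.24, and a second probe of it by -2.02 while the remaining probe did not pass at 0.09. TYMS, which makes thymidylate, differed by -1.98, and CDC45, part of the replicative helicase, by -1.83. The exception was UNG, the uracil DNA glycosylase, at 0.26 (adjusted p = 0.00026), a call lost with median scaling and with no scaling.

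Recombination and Fanconi repair genes fell likewise, 16 of 18 measured lower and 1 higher, with a median of -1.34. RAD54L, a motor protein of homologous recombination, read 8.86, 8.93, 8.87 and 9.01 with EX527 and 6.80, 6.72, 7.20 and 6.84 with MC2494, 4.07-fold lower. RAD51AP1 differed by -1.86, BRCA1 by -1.73 and the helicase gene BLM by -1.55. XRCC2 was called higher by 0.26, a call lost with either other scaling and without EX527 replicate 4 or MC2494 replicate 2. With EX527 6 of the 18 were higher than in control and 5 lower, near the background of 25.9% and 31% of genes. With MC2494 2 were higher and 16 lower (background 37.5% and 35%). An E2F-type core, searched as GGCGGGA on both strands, was in 11 of 16 promoters of this list (68.8%) and 15 of 32 of the replication list (46.9%), against 25.2% of all. The mitosis list held it in 8 of 30 (26.7%). It was not particular to these lists, since 9 of 14 promoters of p53-associated genes (64.3%) and 8 of 15 of cholesterol synthesis genes (53.3%) also held it.

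Of 19 regulators of the G1 phase, 12 were lower and 6 higher, with a median of -0.56. The lower ones included E2F8 (-1.78) and E2F2 (-1.31), transcription factors of the E2F family, and CDKN3 (-1.51), a phosphatase that acts on cyclin-dependent kinases. CDKN1A, the gene of p21, which blocks cyclin-dependent kinases, read 10.03, 10.09, 9.87 and 9.97 with EX527, 11.24, 11.13, 11.07 and 11.02 with MC2494 and 8.83, 9.13, 8.88 and 9.07 in control. Both compounds were above control, and MC2494 was 2.18-fold above EX527 on this probe (log2 1.12), but a second, dimmer probe did not pass (-0.13). Among 14 histone genes 7 were lower and 5 higher, or 3 higher with no scaling. The variant H2AZ1 differed by -0.95 and the replication-dependent H4C3 by -0.94, while H2AC6 differed by 1.19 and H2BC12 by 1.11. Histone genes are near-identical copies, so their probes may read more than 1 gene.

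**Figure D3:**
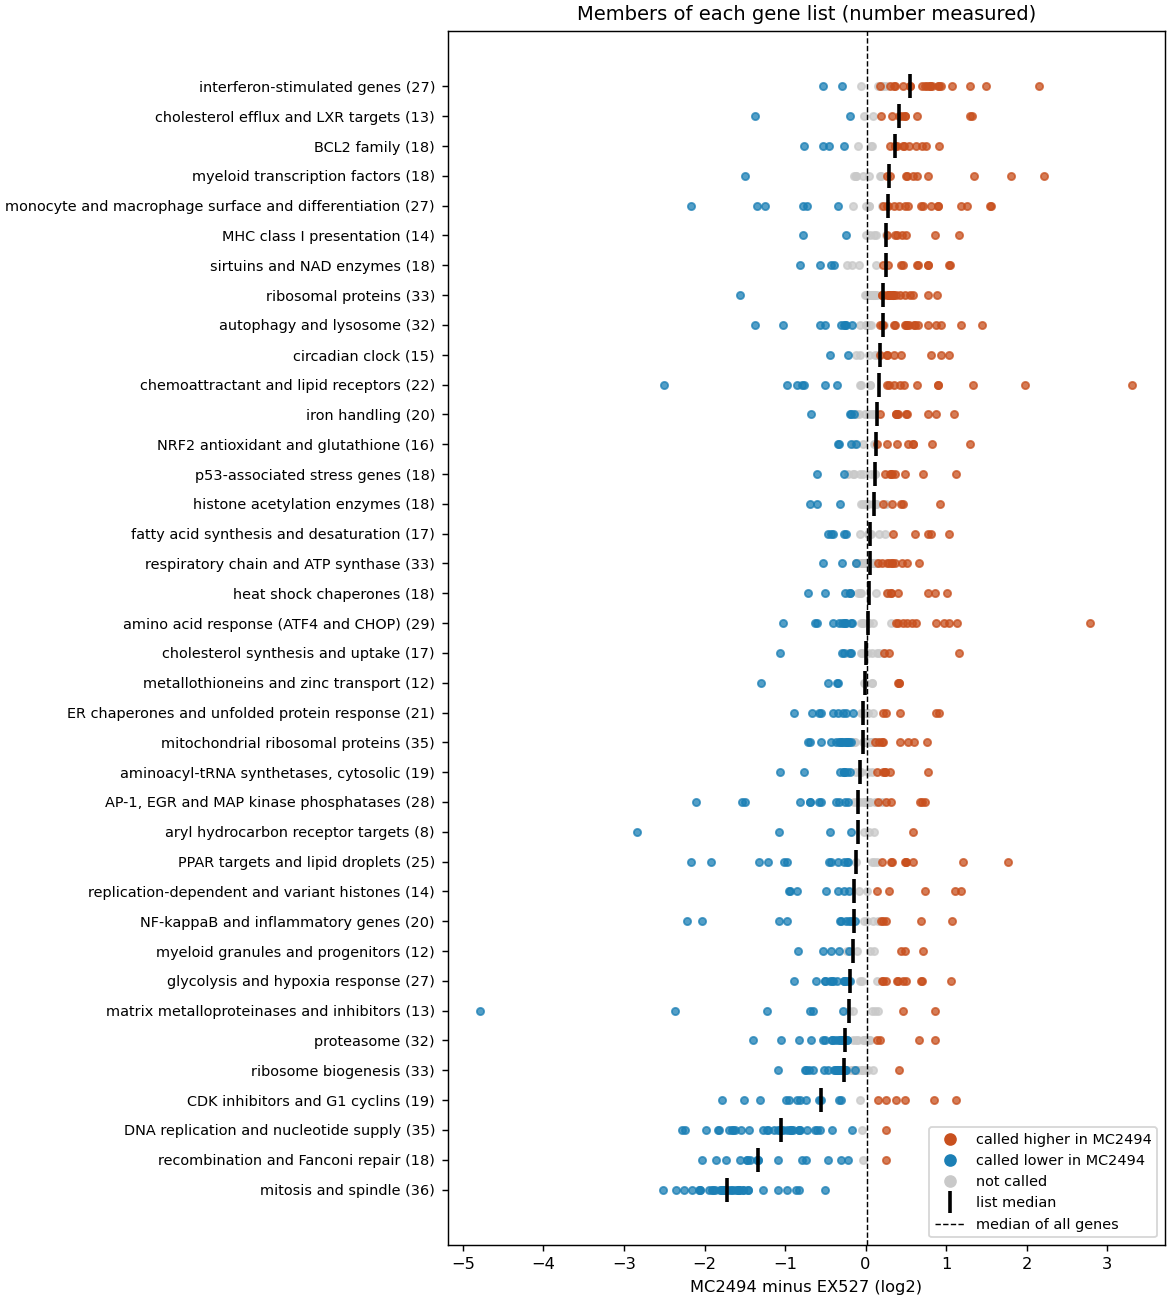
Log2 difference MC2494 minus EX527 of every measured member of 38 gene lists, ordered by list median (black bar), with called members in orange (higher) or blue (lower), members not called in grey, and a dashed line at the median of all genes. The 3 lists of division, replication and recombination lie apart at the left, and most other list medians lie within 0.5 of 0.

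The amino acid response was above control with both compounds and split between them. This programme, run by the transcription factors ATF4 and CHOP, raises transporters and enzymes of amino acid supply. Of 29 measured members 26 were higher than in control with MC2494 and 25 with EX527 (background 37.5% and 25.9% of genes), with medians of 0.88 and 0.78. Between the compounds 11 were higher and 11 lower (background 33.1% and 28.9%), over a range of -1.02 to 2.79, and the median was 0.03, of a sign that turned to -0.05 with median scaling. An interval within 0.5 of 0 was found for 12 of the 29, against 58.3% of all genes.

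ASNS, the asparagine synthetase, read 11.84, 11.82, 11.80 and 11.78 with EX527, 11.61, 11.57, 11.73 and 11.59 with MC2494 and 9.54, 9.67, 9.68 and 9.79 in control. Both compounds were far above control and close to each other, at -0.19 (95% interval -0.31 to -0.06), although a second probe differed by -0.44. ATF4 itself differed by 0.09 (interval -0.05 to 0.23, not called). The ASNS promoter is shown because the element through which C/EBP and ATF factors act, searched as TGATGNAAN on both strands, was found in it. The RefSeq window of GRCh38.p14 lies on the minus strand at chr7:97872359-97872658, and capitals mark the match.
ASNS: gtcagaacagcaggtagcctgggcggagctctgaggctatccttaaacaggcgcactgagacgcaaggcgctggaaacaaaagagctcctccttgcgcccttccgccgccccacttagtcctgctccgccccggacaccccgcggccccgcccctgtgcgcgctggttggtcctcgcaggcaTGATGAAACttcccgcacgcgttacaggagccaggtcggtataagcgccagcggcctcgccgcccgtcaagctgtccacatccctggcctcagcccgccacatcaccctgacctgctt
This element was in 5 of 25 promoters of the amino acid response list (20%) and 6 of 16 of the tRNA synthetase list (37.5%), against 1.84% of all.

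Some members of the response did separate the compounds. NUPR1, a small nuclear protein induced by stress, read 7.24, 7.31, 7.30 and 7.45 with EX527, 10.20, 10.05, 10.16 and 10.05 with MC2494 and 5.50, 5.65, 5.57 and 5.62 in control. It was above control with both and 6.9-fold higher with MC2494 (log2 2.79, SE 0.0601, adjusted p = 7.6e-13), and a second probe gave 2.65. TRIB3, a pseudokinase that restrains ATF4 signalling, was higher by 1.14, ATF5 by 1.04 and DDIT3, the gene of CHOP, by 0.97. PCK2, the mitochondrial phosphoenolpyruvate carboxykinase, read 11.40, 11.39, 11.50 and 11.42 with EX527, 10.42, 10.58, 10.36 and 10.24 with MC2494 and 10.58, 10.63, 10.67 and 10.56 in control. EX527 alone lay above all controls, and the compounds differed by -1.02.

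Of 19 cytosolic aminoacyl-tRNA synthetases, which charge tRNAs and include targets of ATF4, 16 had intervals within 0.5 of 0 (background 58.3%), with 6 higher and 8 lower, or 2 and 11 when scaled to a common median, and 1 and 11 when unscaled. The exceptions in size were VARS1 at -1.06, FARSB at -0.76 and WARS1 at 0.77, the last also known as an interferon-inducible gene.

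Among 21 chaperones and sensors of the endoplasmic reticulum 9 were lower and 5 higher, or 11 and 3 with either other scaling. HSPA5, the chaperone BiP, read 10.67, 10.76, 10.72 and 10.73 with EX527, 11.66, 11.51, 11.64 and 11.71 with MC2494 and 11.03, 10.96, 11.00 and 11.04 in control. EX527 was below and MC2494 above control, and the difference was 0.91 (adjusted p = 2.8e-09). DNAJB9, a co-chaperone of BiP, differed by 0.88, whereas CRELD2 differed by -0.88 and SDF2L1 by -0.66, both products of the same compartment.

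Among 18 heat shock genes 7 were higher and 5 lower, a majority that turned to 5 higher and 8 lower with median scaling. The inducible HSP70 genes HSPA1B and HSPA1A, which are near-identical copies, differed by 1.01 and 0.87, and HSF1, the heat shock transcription factor, by -0.72. Of 16 NRF2-linked antioxidant genes 8 were higher and 4 lower. SRXN1, the sulfiredoxin that repairs oxidised peroxiredoxins, read 8.35, 8.38, 8.36 and 8.47 with EX527, 9.67, 9.67, 9.71 and 9.70 with MC2494 and 8.44, 8.48, 8.46 and 8.54 in control. MC2494 stood apart from both other groups, 2.46-fold above EX527. PGD, an enzyme of the pentose phosphate pathway, differed by 0.82 and NQO1, a quinone reductase, by 0.59.

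Of 18 p53-associated genes 8 were higher and 2 lower, with a median of 0.11, and with no scaling 4 were higher and 4 lower with a median close to 0. TNFRSF10B, a death receptor, differed by 0.72 and SESN1, a stress-inducible sestrin, by 0.49, while DDB2, which recognises DNA damage, differed by -0.60. U937 cells are widely described as lacking working p53. In the BCL2 family 11 of 18 were higher and 4 lower, with a median of 0.37. The pro-death members BAD (0.91, second probe -0.24 and not called) and BOK (0.75) were higher, as was BNIP3L (0.70), a receptor of mitophagy. The pro-death BCL2L11 (-0.76) and the pro-survival BCL2 (-0.53) were lower, so the lower members named included both kinds.

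CYP1A1, the cytochrome P450 that is the classical target of the aryl hydrocarbon receptor, separated the compounds in presence. It read 7.77, 7.73, 7.53 and 7.84 with EX527, 4.77, 5.01, 4.90 and 4.84 with MC2494 and 5.58, 5.45, 5.48 and 5.57 in control, and was detected on all EX527 and control arrays and on 0 of 4 MC2494 arrays. The signal was at least 6.03-fold lower with MC2494 than with EX527 (adjusted p = 2.8e-12), and 4.58-fold above control with EX527. Among the 7 other measured genes linked to the receptor, IL1B (-1.07), TIPARP (-0.45) and NFE2L2 (-0.18) were lower and NQO1 higher. The call of NFE2L2 was lost without EX527 replicate 1 or 3 or MC2494 replicate 1, 2 or 3. The receptor gene AHR was not called (-0.02, interval -0.26 to 0.23). The CYP1A1 promoter in RefSeq's GRCh38.p14 window lies on the minus strand at chr15:74725479-74725778. Capitals mark the core of the dioxin response element, searched as GCGTG on both strands, which is so short that 50.7% of all promoters hold it.
CYP1A1: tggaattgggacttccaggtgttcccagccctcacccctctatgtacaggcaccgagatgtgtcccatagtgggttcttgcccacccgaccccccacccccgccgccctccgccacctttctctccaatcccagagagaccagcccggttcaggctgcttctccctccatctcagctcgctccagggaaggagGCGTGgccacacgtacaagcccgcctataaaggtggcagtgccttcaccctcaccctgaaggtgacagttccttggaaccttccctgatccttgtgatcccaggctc

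Genes of peroxisome proliferator-activated receptors (PPARs) and lipid droplets split. Of 25 measured, 12 were lower and 9 higher. CD36, a scavenger receptor that takes up fatty acids and oxidised lipoprotein, read 10.61, 10.70, 10.65 and 10.58 with EX527, 8.51, 8.43, 8.50 and 8.46 with MC2494 and 9.97, 9.95, 9.86 and 9.96 in control. EX527 was above and MC2494 below control, 4.48-fold apart, and a second probe gave the same difference (-2.18). FABP4, a fatty acid binding protein, read 6.74, 6.77, 6.49 and 6.66 with EX527 and was not detected on any MC2494 or control array, so it was at least 2.9-fold lower with MC2494. TXNIP, an inhibitor of thioredoxin and of glucose uptake, differed by -1.33.

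The receptor gene PPARG and the coactivator gene PPARGC1A went the other way. PPARG, the receptor PPAR gamma, read 10.43, 10.43, 10.45 and 10.46 with EX527, 11.66, 11.63, 11.67 and 11.64 with MC2494 and 9.55, 9.47, 9.47 and 9.57 in control. Both compounds were above control and MC2494 was 2.31-fold above EX527. PPARGC1A, the coactivator PGC-1 alpha, read 8.22, 8.10, 8.23 and 8.17 with EX527, 9.98, 9.87, 9.91 and 10.04 with MC2494 and 6.96, 6.81, 6.87 and 6.95 in control, 3.4-fold higher with MC2494 than with EX527. CD36 and FABP4, which are known targets of PPAR gamma, were lower with the compound under which PPARG was higher. Both were named for the size of their difference in a list that split, and activity of the receptor was not tested.

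Of 13 genes of cholesterol efflux 9 were higher and 2 lower, with a median of 0.41, or 0.29 with genes undetected in a group taken at their bound. NR1H3, the oxysterol receptor LXR alpha, read 7.37, 7.34, 7.20 and 7.24 with EX527 and 8.74, 8.40, 8.58 and 8.61 with MC2494, 2.46-fold higher. PLTP, a phospholipid transfer protein and LXR target, differed by 1.32 and APOC2 by 0.64. NPC1, which moves cholesterol out of lysosomes, read 12.82, 12.74, 12.86 and 12.80 with EX527 and 11.44, 11.44, 11.40 and 11.46 with MC2494, 2.59-fold lower. Cholesterol synthesis had 3 of 17 members higher and 5 lower, or 3 lower without EX527 replicate 4 or MC2494 replicate 1 or 2, and 1 higher with no scaling. It was led by SC5D (1.16), a late enzyme of the pathway, and INSIG1 (-1.07), which restrains it. Of 17 genes of fatty acid synthesis 5 were higher and 5 lower. ACSS2, which makes acetyl-CoA from acetate, differed by 1.04 on one probe and was not called on another (0.12), LPIN1 differed by 0.81 and ACLY, which makes acetyl-CoA from citrate, by -0.47.

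In glycolysis and the hypoxia response 13 of 27 were lower and 10 higher, or 6 higher with no scaling. The phosphofructokinase subunit PFKL differed by -0.88, the aldolase gene ALDOC by 1.06, VEGFA, a growth factor of blood vessels, by 0.70, and PFKFB3, which makes an activator of glycolysis, by 0.68. Of 33 measured genes of the respiratory chain and ATP synthase, 29 had intervals within 0.5 of 0 (background 58.3%), and the 10 higher and 3 lower calls turned to 6 higher and 9 lower with median scaling. CYCS, cytochrome c, differed most at 0.67, and SDHA, a subunit of complex II, by -0.53.

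Inflammatory and matrix genes included several of the widest differences, although few members of each list were involved. Of 13 metalloproteinases and their inhibitors 6 were lower and 2 higher. MMP8, the neutrophil collagenase, read 6.81, 6.85, 7.05 and 6.89 with EX527 and 5.79, 5.63, 5.70 and 5.70 in control and was not detected on any MC2494 array, at least 3.42-fold lower than with EX527. MMP3, a stromelysin, differed by -1.22 and was detected on 2 of 4 MC2494 arrays. TIMP2, an inhibitor of these enzymes, differed by 0.86 on one probe and was not called on another (0.20), and ADAM17, a sheddase, differed by 0.46.

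Of 20 NF-kappaB and inflammatory genes 10 were lower and 5 higher, or 2 higher with either other scaling. CCL2, a monocyte chemoattractant, read 13.14, 13.08, 13.02 and 12.95 with EX527, 10.95, 10.76, 10.76 and 10.84 with MC2494 and 12.99, 12.91, 12.97 and 12.83 in control. MC2494 alone stood apart, 4.66-fold below EX527 (adjusted p = 4.4e-12). CXCL8, the gene of interleukin-8, read 13.94, 13.81, 14.08 and 13.85 with EX527, 11.89, 11.76, 11.94 and 11.97 with MC2494 and 13.15, 12.97, 13.19 and 13.06 in control. Here EX527 was above and MC2494 below control, 4.08-fold apart. IL1B differed by -1.07 while IL1RN, the interleukin-1 receptor antagonist, differed by 1.08. TNFAIP2 was higher by 0.69.

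Receptors for chemoattractants and lipids moved both ways, 11 of 22 higher and 7 lower. GPR183, a receptor of oxysterols that guides immune cells, read 10.08, 10.15, 10.12 and 10.08 with EX527, 7.50, 7.47, 7.66 and 7.81 with MC2494 and 9.40, 9.39, 9.28 and 9.54 in control. EX527 was above and MC2494 below control, 5.65-fold apart. FPR1, a receptor of formyl peptides, read 6.93, 6.66, 6.98 and 6.74 with MC2494 and was not detected on any EX527 or control array, at least 3.15-fold higher with MC2494. P2RX7, an ATP-gated channel, differed by 1.34. With CX3CR1, FPR1 and P2RX7 higher and GPR183 lower, the receptors named had no common direction.

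Of 27 monocyte and macrophage surface genes 16 were higher and 6 lower (background 33.1% and 28.9%), with a median of 0.28, or 0.27 with undetected genes at their bound. ITGAM, the integrin CD11b, read 7.41, 7.42, 7.66 and 7.30 with EX527, 9.00, 9.17, 8.91 and 8.89 with MC2494 and 8.34, 8.20, 8.44 and 8.24 in control. EX527 was below and MC2494 above control, 2.92-fold apart. FCGR1A, the high-affinity IgG receptor CD64, differed by 1.56, and its probe may also read its near-identical copies. CSF1R, the receptor of macrophage colony-stimulating factor, read 8.09, 8.04, 8.09 and 8.19 with EX527, 9.37, 9.27, 9.27 and 9.27 with MC2494 and 9.08, 9.05, 9.14 and 9.24 in control. EX527 lay below both other groups, and MC2494 was a little above control. FCN1, a lectin of monocytes, differed by -1.35 and LYZ, lysozyme, by -1.25, and CD14 was not called (0.05, interval -0.10 to 0.19).

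Of the 13 U937 and blast markers 7 were higher and 4 lower, with ANPEP, the aminopeptidase CD13, lowest at -1.66 and CD68 highest at 0.91. The summed signal of these markers was 54273 to 56164 on the EX527 arrays, 60126 to 60736 with MC2494 and 65336 to 67811 in control. Of granule and progenitor genes 5 of 12 were lower and 3 higher, among them PRTN3, the serine protease proteinase 3, at -0.84 and PRG2, eosinophil major basic protein, at 0.71.

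Myeloid transcription factors were higher in 10 of 18 and lower in 1, or 3 with either other scaling, with a median of 0.29. KLF2, a factor that restrains inflammatory genes in monocytes, read 6.43, 6.54, 6.47 and 6.50 with EX527, 8.63, 8.75, 8.78 and 8.64 with MC2494 and 7.23, 7.05, 7.36 and 7.29 in control. EX527 was below and MC2494 above control, 4.64-fold apart (log2 2.21, SE 0.0666, adjusted p = 5.7e-12). CEBPE, a factor of late granulocyte maturation, read 7.60, 7.63, 7.41 and 7.55 with EX527, 9.41, 9.37, 9.27 and 9.37 with MC2494 and 8.11, 8.11, 8.18 and 7.99 in control, 3.5-fold apart. KLF4, which drives monocyte differentiation, differed by 1.35 and CEBPA by 0.78. EGR1, an early response factor, was the one called lower with quantile normalization, at -1.50.

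Genes of AP-1 and EGR factors, MAP kinase phosphatases and others linked to them were lower in 12 of 28 and higher in 6, or 3 with no scaling. PHLDA1 read 7.75, 7.65, 7.69 and 7.76 with EX527, 5.45, 5.89, 5.64 and 5.43 with MC2494 and 6.30, 6.20, 6.28 and 6.04 in control. EX527 was above and MC2494 below control. ETV4 (-1.53) and ETV5 (-0.82), ETS factors raised by growth factor signalling, were lower with MC2494, whereas FOS (-0.07, interval -0.22 to 0.07) was not called.

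Interferon-stimulated genes were higher in 20 of 27 and lower in 2 (background 33.1% and 28.9%), with a median of 0.56. With EX527 14 of them were lower than in control and 7 higher (background 31% and 25.9%). With MC2494 15 were higher and 4 lower (background 37.5% and 35%), with list medians against control of -0.21 and 0.48. IFIT1, an RNA-binding antiviral protein, read 5.16, 5.08, 5.41 and 5.30 with EX527, 7.16, 7.41, 7.46 and 7.52 with MC2494 and 6.63, 6.83, 6.89 and 6.78 in control. EX527 was below and MC2494 above control, 4.45-fold apart (log2 2.15, SE 0.0901, adjusted p = 1e-10), and it was detected on 2 of 4 EX527 arrays. ISG20, an exonuclease, read 6.11, 6.24, 5.94 and 6.31 with EX527, 7.76, 7.62, 7.60 and 7.62 with MC2494 and 6.85, 6.69, 6.72 and 6.88 in control, again with control between the compounds. IFIT2 read 5.08, 5.31, 4.95 and 5.11 with EX527, 6.43, 6.31, 6.38 and 6.55 with MC2494 and 6.82, 6.68, 6.82 and 6.54 in control, so that EX527, where it was detected on 1 of 4 arrays, lay below both other groups and MC2494 reached into the control range. XAF1, a pro-death protein, differed by 1.08, and the GTPase MX2 (-0.29) and the ligase HERC5 (-0.53) were the lower ones. At a difference tested to be above 1.5-fold, 9 of the 27 were called higher and 0 lower. Of all 9956 genes, 526 were called higher and 574 lower by that test.

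The promoters of IFIT1 and ISG20 hold the interferon response element, searched as TTTC, any 2 bases and TTTC on both strands and marked by capitals. RefSeq's GRCh38.p14 windows lie on the plus strand at chr10:89392373-89392672 for IFIT1 and chr15:88638766-88639065 for ISG20.
IFIT1: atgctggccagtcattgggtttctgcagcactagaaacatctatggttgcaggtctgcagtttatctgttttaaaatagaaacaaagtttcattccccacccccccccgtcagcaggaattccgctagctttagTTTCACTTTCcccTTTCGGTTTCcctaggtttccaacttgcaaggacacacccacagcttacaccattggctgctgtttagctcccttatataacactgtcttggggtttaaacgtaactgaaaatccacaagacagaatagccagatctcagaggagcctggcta
ISG20: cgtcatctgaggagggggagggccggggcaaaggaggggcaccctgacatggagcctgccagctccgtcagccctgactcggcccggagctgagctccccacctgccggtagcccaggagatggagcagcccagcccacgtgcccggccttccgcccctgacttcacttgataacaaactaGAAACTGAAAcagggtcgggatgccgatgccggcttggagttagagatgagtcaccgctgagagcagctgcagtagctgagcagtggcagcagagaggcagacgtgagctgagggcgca
The element was in 11 of 20 promoters of the list (55.0%) and in 2.83% of all. Of 14 genes of MHC class I presentation 7 were higher and 2 lower, or 4 and 3 with no scaling. TAPBPL, an editor of bound peptides, differed by 1.16 and PSMB9, an immunoproteasome subunit, by 0.86, while the transporter subunit TAP2 differed by -0.78.

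Of the 5 sirtuin genes measured 4 were called between the compounds, where 62% of all genes were. SIRT2, a mainly cytosolic deacetylase, read 6.86, 6.68, 6.75 and 6.91 with EX527, 7.82, 7.88, 7.86 and 7.78 with MC2494 and 6.76, 6.83, 6.83 and 6.63 in control. EX527 overlapped control and MC2494 was 2.05-fold above EX527, with 0.93 on a second probe. SIRT1 read 8.26, 8.35, 8.54 and 8.26 with EX527, 8.77, 8.78, 8.81 and 8.78 with MC2494 and 7.87, 7.78, 7.69 and 7.71 in control, above control with both and 1.35-fold higher with MC2494 than with EX527 (adjusted p = 4.8e-05). The mitochondrial SIRT4 and SIRT5 differed by 0.78 and 0.46. SIRT6, a nuclear member, was not called (-0.16, interval -0.37 to 0.04) unless MC2494 replicate 2 was left out (-0.24), and SIRT3 and SIRT7 had no probe that passed the filter.

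Of the 18 sirtuin and NAD genes 10 were higher and 4 lower. NMNAT1, the nuclear enzyme that completes NAD, read 6.52, 6.68, 6.71 and 6.73 with EX527, 7.70, 7.67, 7.72 and 7.76 with MC2494 and 6.91, 6.76, 6.95 and 6.90 in control, 2.08-fold higher with MC2494. NAMPT, the rate-limiting enzyme of NAD salvage, read 8.51, 8.30, 8.51 and 8.60 with EX527, 7.63, 7.58, 7.76 and 7.70 with MC2494 and 8.02, 8.24, 8.00 and 8.22 in control. EX527 was above and MC2494 below control. The NAD-consuming PARP1 differed by -0.43. Of 18 histone acetylation enzymes 10 were not called. Those called were led by the coactivator NCOA1 (0.93), the mainly cytosolic deacetylase HDAC6 (-0.69) and the acetyltransferase HAT1 (-0.60), which acts on newly made histone H4.

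Genes of protein synthesis went in opposite directions by small amounts. Of 33 cytosolic ribosomal proteins 18 were higher and 1 lower, with a median of 0.22, and the exception was RPS7 at -1.55 on the probe used. RPS23 differed by 0.88, and RPL14 by 0.78 on one probe and -0.51 on another. Ribosomal protein genes have many processed copies that probes may also read. Of 33 ribosome biogenesis genes 21 were lower and 1 higher, with a median of -0.26 and NOLC1, a nucleolar phosphoprotein, lowest at -1.09. Nucleolin, NCL, differed by -0.75. Mitochondrial ribosomal proteins were lower in 15 of 35 and higher in 8, or 3 with no scaling, with a median of -0.04.

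In the proteasome 20 of 32 subunits were lower and 4 higher, or 2 higher with either other scaling, with a median of -0.26. PSMD1 (-1.40) and PSMD12 (-1.05) of the regulatory particle were lowest, and the interferon-inducible PSMB9 (0.86) and PSMB10 (0.66) were highest. The remaining higher calls were small, PSMD4 at 0.18 and PSME1 at 0.14, and both turned below 0 with no scaling (-0.041 and -0.083) and were not called without EX527 replicate 2 or 3. PSMD4 was also not called without EX527 replicate 4 or MC2494 replicate 2, and PSME1 without EX527 replicate 1 or MC2494 replicate 3. Autophagy and lysosome genes were higher in 17 of 32 and lower in 9. GPNMB, a glycoprotein of lysosomes in macrophages, differed by 1.44, GABARAPL1, which coats autophagosomes, by 1.19, and ATG7, which activates such proteins, by -1.02.

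**Figure D4:**
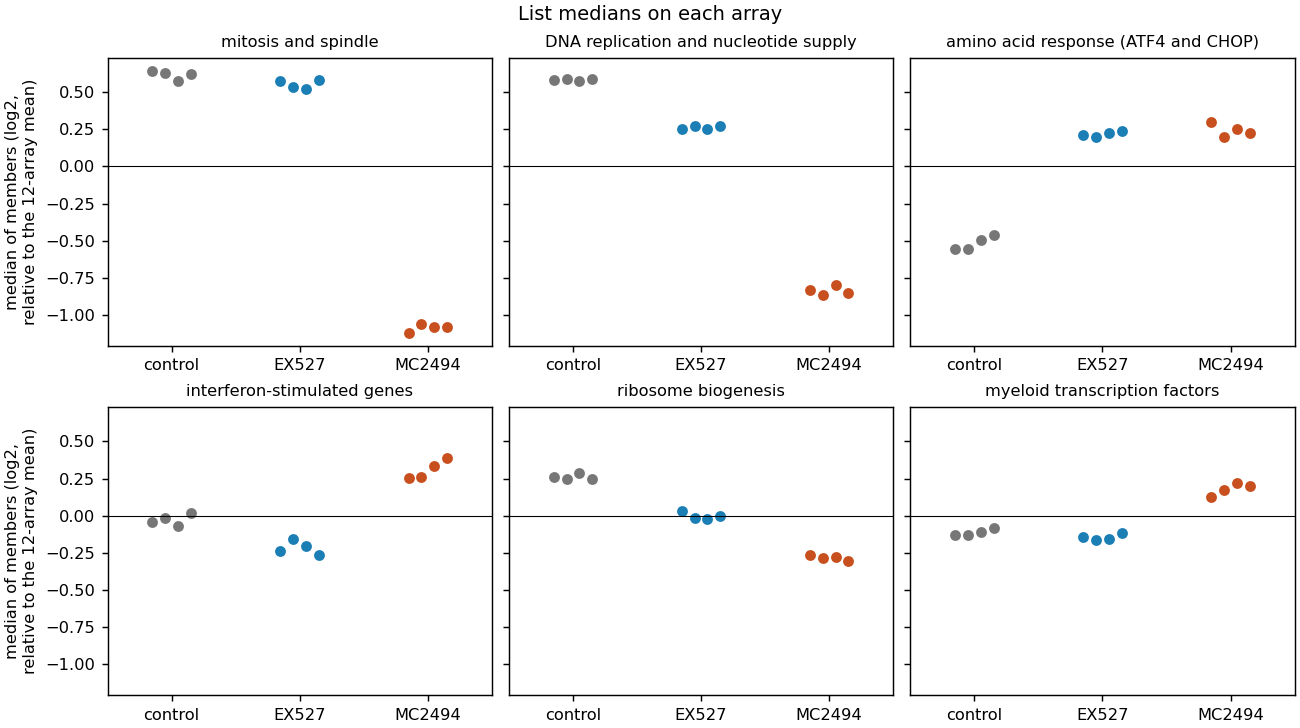
Median over the members of 6 gene lists of the log2 signal relative to the mean of all 12 arrays, with 1 point for each array. The MC2494 points lie apart from the EX527 points in every panel except the amino acid response, where both compounds lie between 0.20 and 0.30 and control between -0.56 and -0.47.

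Several of the widest differences lay outside the lists. Higher with MC2494 were KCNE1 (5.42-fold) and KCNMB1 (4.17-fold), auxiliary subunits of potassium channels, CYSRT1 (5.29-fold), ANKDD1A (4.16-fold) and CD70 (4.06-fold), the ligand of CD27. ENDOV, an endonuclease that cuts at inosine, was 4.04-fold higher. These folds rest in part on signals not detected, since KCNE1 was detected on 3, CYSRT1 on 2 and ENDOV on 1 of the 4 EX527 arrays. ZMYND15 was at least 4.33-fold higher. FOXP4, a forkhead factor, was 5.27-fold higher on one probe, and a second was not detected on any EX527 array. IDS, a lysosomal sulfatase, was 4.07-fold higher on its brightest probe, with log2 differences of 1.08 and, not called, 0.21 on others. LHX3, a homeobox factor of the pituitary, was 5.01-fold higher on one probe and not called on another (0.06), which were detected on 3 and 2 of the 4 EX527 arrays.

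Lower with MC2494 was APOBEC3B, a cytidine deaminase that acts on single-stranded DNA, which read 9.89, 10.00, 9.71 and 9.87 with EX527, 7.34, 7.47, 7.63 and 7.30 with MC2494 and 10.40, 10.20, 10.30 and 10.24 in control. Both compounds were below control and MC2494 was 5.41-fold below EX527. FUCA1, a lysosomal fucosidase, read 12.82, 12.81, 12.92 and 12.87 with EX527, 10.57, 10.80, 10.65 and 10.77 with MC2494 and 11.76, 11.70, 11.72 and 11.56 in control, so that EX527 was above and MC2494 below control. CTXN1 was 4.82-fold lower.

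Circadian clock genes were higher in 8 of 15 and lower in 2, or 4 and 3 with no scaling, with NFIL3 (1.04), DBP (0.94) and NR1D2 (0.81), output and repressor genes of the clock, highest and CLOCK itself at -0.44. Iron genes were higher in 10 of 20 and lower in 4, with ALAS1, the first enzyme of haem synthesis, at 1.10 and SLC40A1, the iron exporter ferroportin, at 0.87. Of 12 metallothionein and zinc transport genes 3 were higher and 4 lower, or 1 and 5 with no scaling, with SLC39A10, a zinc importer, at -1.29.

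Genes alike between the compounds set the scale for these differences. In all, 5809 genes (58.3%) had a 95% interval of MC2494 minus EX527 within 0.5 of 0, whether or not they differed from control. Of these, 2206 were still called between the compounds. Among the alike genes PLIN2, a coat protein of lipid droplets, stood farthest above control. It read 14.40, 14.37, 14.48 and 14.47 with EX527, 14.04, 14.13, 14.23 and 14.23 with MC2494 and 10.85, 10.88, 10.90 and 10.84 in control. Both compounds were 9.79-fold (MC2494) and 11.8-fold (EX527) above control, and their difference, -0.27 with an interval of -0.39 to -0.16, was called but small.

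GDF15, a stress-induced cytokine, read 7.03, 7.16, 7.06 and 6.75 with EX527 and 7.11, 7.10, 7.08 and 7.18 with MC2494, overlapping, and 5.18, 5.08, 4.98 and 5.25 in control. C5AR1, the receptor of complement C5a, read 7.21, 7.17, 7.33 and 7.14 with EX527 and 7.24, 7.23, 7.33 and 7.29 with MC2494, overlapping, and 5.50, 5.44, 5.96 and 5.58 in control. The intervals of their differences were -0.06 to 0.29 and -0.14 to 0.26. On the low side COL22A1, a collagen gene, read 5.05, 5.51, 5.29 and 5.27 with EX527, 5.00, 5.00, 4.92 and 5.19 with MC2494 and 7.55, 7.64, 7.68 and 7.97 in control. Its difference was -0.25 (interval -0.47 to -0.03, adjusted p = 0.048), a call lost without control replicate 2 or 3, EX527 replicate 2, 3 or 4, or MC2494 replicate 1, 2 or 3. It was detected on 3 of 4 EX527 and 1 of 4 MC2494 arrays, so that a difference near the detection limit may be understated. RASL11A (-0.15) was also below control with both compounds and alike between them.

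Some genes gave different answers by probe. Of 1579 genes with several kept probes, 605 had all of them called in the same direction and 80 (5.07%) had probes called in opposite directions. ABCF2, an ATP-binding cassette protein of translation, gave -1.12 on one probe and 2.32 on another, while its brightest probe was not called at -0.06. MACROH2A1, a histone variant with a macro domain, gave -0.21 on its brighter probe and 1.61 on the other. ABHD12, a lipase, gave -0.60, -1.03 and 0.96. SYNGR1 gave -0.51, 1.39 and 0.33, and ATP2B3, a calcium pump, -0.76, 1.13 and 0.81. The value of such a gene depends on the transcript that the chosen probe reads, which was not tested.

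**Figure D5:**
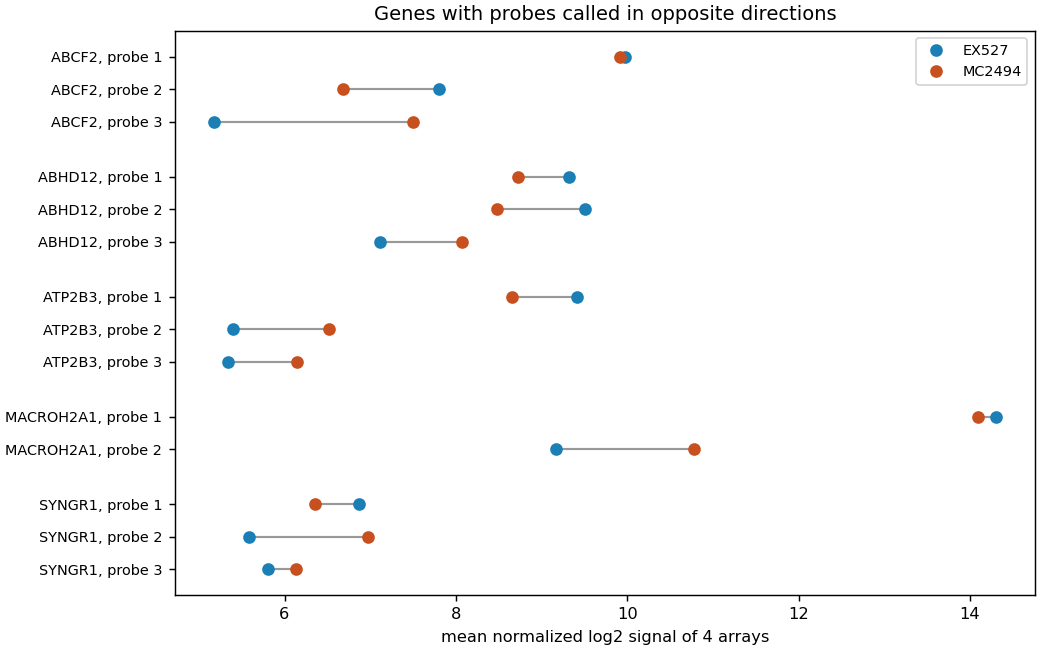
Mean normalized log2 signal over 4 arrays with EX527 (blue) and MC2494 (orange) for each kept probe of the 5 genes with the widest gap between probes called in opposite directions. In each gene at least 1 probe has MC2494 to the right of EX527 and at least 1 has it to the left.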

How the data were processed

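U937 RNA was labelled with biotin and hybridised to Illumina bead arrays, per the labels' protocols. The deposited table gives a linear bead intensity for each probe, not normalized, and a detection p-value per probe and array, per the file headers. The authors also deposited log2 values, quantile normalized as their equal sorted columns show. Limma is named in the submitters' processing notes. Their background method is not given in the sources used here.

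Intensities were corrected with the detection p-values, given an offset of 16, quantile normalized and taken to log2 (neqc, limma 3.58.1, R 4.3.3), which removes any difference in total signal. Symbols came from the platform annotation, updated to RefSeq through Entrez identifiers, and 21 named probes had no entry. A gene was read from its kept probe of highest mean. Group means were fitted over the 12 arrays (lmFit, eBayes) and p-values were adjusted by Benjamini-Hochberg over 9956 genes, 2-sided, threshold 0.05. The median SD within groups was 0.10 on the log2 scale, and 4 arrays per group limit the precision. A gene undetected on all 4 arrays of the dimmer group has a bound, from the higher, per array, of its own signal and the lowest detected signal, written "at least". Genes count as alike where the 95% interval lies within 0.5 of 0. Replicate numbers were not taken to pair arrays.

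The members and the 42 gene lists were chosen with earlier results of these data known, so list counts are descriptions. Named genes were the 15 widest differences each way among called genes whose groups do not overlap and whose symbol is informative, up to 4 per list and the few called against a list's majority, SIRT1 to SIRT7, the 8 farthest from control each way among alike genes, and the 5 widest disagreements between probes; the text gives part of these. AHR, ATF4, CD14, CEBPA, CENPE, CSF1R, DDIT3, FOS, PPARG and SPI1 were chosen after their values were seen. Promoters were the first RefSeq window listed per gene, found for 8311 genes. The procedure was tested on simulated data.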

Additional observations from a re-analysis of the deposited data

Results flagged for a closer look

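For each named gene, and for the mean raw signal and the number of detected probes, the 4 arrays of each compound were searched for a value that stood apart from the other 3. Of 374 groups tested 18 (4.81%) had one, and chance alone marks about 1 in 20. Values are normalized log2 signals, each against the nearest of the other 3 arrays of its group. Standing high were CRELD2 on MC2494 replicate 2 (11.28 against 11.04), CSF1R on MC2494 replicate 1 (9.37 against 9.27), FARSB on EX527 replicate 4 (6.70 against 6.52), ISG20 on MC2494 replicate 1 (7.76 against 7.62), NKG7 on MC2494 replicate 2 (12.95 against 12.89), PFKFB3 on MC2494 replicate 2 (11.21 against 11.08), PSMD4 on MC2494 replicate 2 (12.38 against 12.09), PSME1 on MC2494 replicate 3 (12.40 against 12.25), SYNGR1 on MC2494 replicate 2 (6.61 against 6.28), TNFAIP2 on EX527 replicate 4 (6.97 against 6.62), TNFAIP2 on MC2494 replicate 4 (7.59 against 7.34) and VEGFA on EX527 replicate 4 (9.71 against 9.52). Standing low were ENDOV on EX527 replicate 2 (4.78 against 5.10), FPR1 on EX527 replicate 4 (4.74 against 4.87), MKI67 on EX527 replicate 2 (7.44 against 7.62), MX2 on EX527 replicate 2 (10.74 against 10.81), NFIL3 on EX527 replicate 1 (7.49 against 7.77) and PARP1 on MC2494 replicate 2 (12.78 against 12.87). MC2494 replicate 2 held 6 of the 18. For the genes in question the compounds' ranges are given in the report where they lead a result, and IFIT1, MMP1 and CX3CR1 were not among them.

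Signal was also present in probes that carry no gene name and were left out of the gene counts. Of 1215 such kept probes, 702 (57.8%) were called between MC2494 and EX527, 346 higher and 356 lower in MC2494, beside 62% of named genes.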

How the results depend on the processing

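The number of genes called stayed within 1.5 times the main count of 6168 in all alternatives but 1. Testing for a difference above 1.5-fold left 1100 called, 526 higher and 574 lower, and 9 interferon-stimulated genes higher. With no scaling 2045 genes were called higher. Counts at 2-fold or more, 643 in the main setting, were 359 with no background correction (129 higher, 230 lower) and 406 with the deposited log2 values (151 higher), and an offset of 50 gave 175 higher. Leaving out each of the 12 arrays gave 5867 to 6191 called (3137 to 3298 higher, 2729 to 2893 lower), 626 to 649 at 2-fold (270 to 281 higher, 356 to 368 lower), 36 mitosis, 33 replication and 15 to 16 recombination genes lower, and 18 to 21 interferon-stimulated genes higher.

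Signs turned for PSME1 with median scaling (-0.040) and no scaling (-0.083), for PSMD4 with no scaling (-0.041), and, with the mean of all kept probes, for ABCF2 (0.38), ATP2B3 (0.39), MACROH2A1 (0.70) and SYNGR1 (0.40), whose probes disagree. Apart from these the cause of shifts was not tested. Of 185 named genes 130 kept direction and side of the threshold in all of the 31 alternatives that measured them. Of the 185, 51 lost the call in at least 1. With detection required on all 12 arrays only 164 of the named genes were measured, and with detection p under 0.01 only 179.

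Replicates with the same number in both compounds deviated with correlations of 0.04, 0.10, -0.01 and 0.19, so the number was not taken as a pairing. Between compounds, within replicates 1 and 2 and within 3 and 4, the correlations ranged from -0.01 to 0.26. Across that split they ranged from -0.21 to 0.04. A replicate block gave 6235 called, 6068 of them shared with the main 6168 in the same direction, and changed no call of a named gene. Replicates 1 and 2 alone, 3 and 4 alone, and that split as a term (6324 called) were chosen after seeing the data. Signal near background limits low genes: a bound is given where no array of a group detected the gene, and a fold of a gene detected on some arrays of a group rests in part on undetected signal.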

Other observations

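The widest difference among the unnamed probes was as wide as that of the leading named genes. Probe ILMN_2150856 was lower with MC2494 by -4.47 on the log2 scale (SE 0.102, adjusted p = 1.4e-12 over all kept probes) and was detected on all 12 arrays. In the other direction probe ILMN_1666902 was higher by 2.20 (SE 0.0555). No gene is paired with either in the annotation used here, so neither was counted or described further.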
